A study of Mus musculus with 6 samples.

Results

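Expression of 10 genes of the T cells that live within the gut epithelium was examined in RNA sequencing of 6 mouse samples, 3 carrying the vector and 3 overexpressing circEZH2_005, a circular RNA formed from the Ezh2 gene. The members were Cd3e, Cd3g, Cd4, Cd8a, Cd8b1, Itgae, Gzma, Gzmb, Cd7 and Ptprc, taken by symbol as a gauge of intraepithelial lymphocyte RNA, and all 10 were among the 28752 genes of the deposited table. The labels name the samples as intestinal crypt stem cells: Lgr5+ intestinal stem cells (ISCs) were isolated from Lgr5-GFP mice and grown into crypt-villus organoids in IntestiCult medium. The vector samples have the genotype label WT and the others that of circEZH2_005 overexpression from an adenovirus, and all 6 were exposed to hypoxia/reoxygenation (H/R), with 4 h in 2% O2, 5% CO2 and 93% N2. The labels place H/R at 72 h after infection, and no normoxic samples were analysed here. The study describes its animals as young adult male C57BL/6 mice and gives no separate age for the Lgr5-GFP donors. It describes its experiments as repeated with independent biological replicates, but the sources used here do not say whether these 6 samples came from separate animals or cultures, and p-values measure only the spread between them, which may in that case be technical. The labels name no lymphocytes and no co-culture.

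Intraepithelial lymphocytes are T cells that sit between the epithelial cells of the villus and crypt. Most carry the T cell receptor with its CD3 chains, many carry CD8 and some CD4, and the integrin chain encoded by Itgae holds them to E-cadherin on the epithelial cell. They store granzymes, the proteases that cytotoxic lymphocytes release into target cells, and Ptprc (CD45) marks all leukocytes. Epithelial cells do not carry the CD3 chains.

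The samples held between 71506487 and 79919893 counts, at which 3 counts, the limit that a count of 0 allows, correspond to 0.0375 to 0.0420 CPM (counts per 1000000 counts of the library, here scaled with TMM). Epcam, the epithelial adhesion molecule, had 98749, 96199 and 103010 counts with the vector and 107145, 120407 and 105908 with circEZH2_005 (replicates 1 to 3 in order, here and throughout), so the epithelial label was borne out in every sample. Lgr5, the marker used for isolation, had counts between 901 and 1436 with the vector and between 552 and 680 with circEZH2_005 (log2 fold change -0.88, standard error 0.18, adjusted p = 0.0434, by the quasi-likelihood test of edgeR and Benjamini-Hochberg adjustment). Over the 18348 genes tested the median log2 fold change was 0.00. Vector sample 2 stood apart from the other vector samples in the T cell genes, and their results are therefore given with and without it. Summed over the members, vector 2 was at 3.47 times the mean of the other vector samples. In marker lists read below, that ratio was 1.85 for B and plasma cells, 1.55 for erythroid cells and 1.54 for mast cells and granulocytes. It was 1.42 for crypt stem cells and 0.971 for epithelium.

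T cell RNA was present in all 6 samples and was higher in each circEZH2_005 sample than in any vector sample, for each of the 10 members. Summed over the members, the level was 173, 671 and 213 CPM with the vector and 1874, 1438 and 1052 CPM with circEZH2_005. The fitted log2 fold changes ran from 1.68 for Ptprc to 2.26 for Gzmb, with a median of 2.02. By the criterion of a fold change over 2 with an unadjusted p under 0.05, 10 of 10 members were higher with circEZH2_005, where 6.22% of all genes tested met it. At an adjusted p under 0.05 over all genes, 1 of 10, Cd7, was called, against 2.69% of all genes. The groups did not overlap in 10 of 10 members, against 16.4% of all genes in which every circEZH2_005 sample lay above every vector sample. In these bulk samples, more T cells and more RNA of these genes per cell cannot be told apart. For each member the two-sided exact permutation p was 0.1, the smallest that 3 samples against 3 allow.

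**Figure D1:**
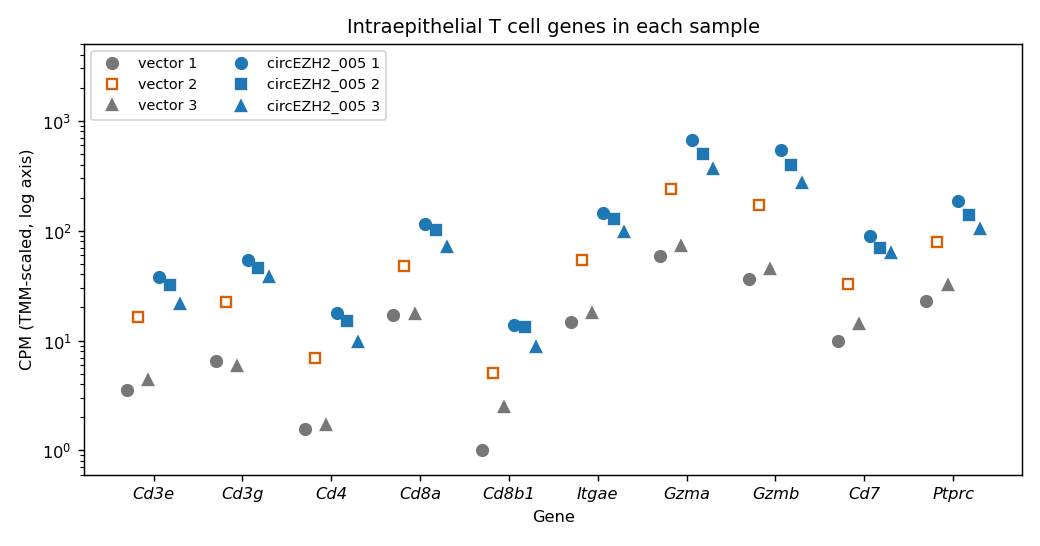
Level of each of the 10 genes in each sample, in CPM after TMM scaling on a log axis, with vector samples in grey (vector 2 as an open orange square) and circEZH2_005 samples in blue. In every gene the circEZH2_005 samples lie highest, vector 2 lies 4th from the top and vector 1 and vector 3 lie at the bottom.

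The CD3 chains, which pass the signal of the T cell receptor into the cell, are the defining T cell products among the members. Cd3e (ENSMUSG00000032093, chromosome 9, 44998740 to 45009622, minus strand, mm10) had 257, 1234 and 345 counts with the vector and 2987, 2379 and 1548 with circEZH2_005. Its mean level was 8.16 ± 7.25 CPM (SD, n = 3) with the vector and 30.4 ± 8.10 CPM (SD, n = 3) when circEZH2_005 was overexpressed. The log2 fold change of Cd3e was 1.9 (standard error 0.57, edgeR adjusted p = 0.0982). Vector 2 lay nearer to the lowest circEZH2_005 sample than to the other vector samples on a ratio scale, the lowest circEZH2_005 level being 1.31 times that of vector 2. Cd3g (ENSMUSG00000002033, chromosome 9, 44969572 to 44980431, minus strand) lies 18308 bases from Cd3e and had counts of 467, 1666 and 457 with the vector and of 4280, 3396 and 2729 with circEZH2_005. The log2 fold change of Cd3g was 1.99 (standard error 0.50, edgeR adjusted p = 0.0668), on levels of 11.5 ± 9.33 CPM with the vector and 45.9 ± 7.87 CPM with circEZH2_005 (SD, n = 3 each). Neither chain passed the adjusted threshold, and the vector SD was close to the vector mean in both. Exons of Cd3e overlap those of Gm48719 on the other strand, and since no source says that strand was used in counting, reads of the pair cannot be told apart.

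The coreceptors bind the major histocompatibility complex beside the T cell receptor, CD4 to class II and CD8 to class I. Cd8a (ENSMUSG00000053977, chromosome 6, 71373427 to 71379169, plus strand) encodes the CD8 alpha chain, which many intraepithelial lymphocytes carry as a homodimer. It had 1238, 3588 and 1381 counts with the vector and 9067, 7526 and 5130 with circEZH2_005. Its level was 27.6 ± 17.7 against 95.6 ± 21.8 CPM (SD, n = 3 each), and its log2 fold change 1.79 (standard error 0.41, edgeR adjusted p = 0.0570). Cd8b1 (ENSMUSG00000053044, chromosome 6, 71322788 to 71337494, plus strand) encodes the beta chain of the conventional heterodimer and lies 35932 bases from Cd8a. It was low in vector 1, at 73 counts, with 382 and 194 in vector 2 and vector 3 and 1105, 986 and 625 with circEZH2_005. The log2 fold change of Cd8b1 was 2.06 (standard error 0.52, edgeR adjusted p = 0.0678). Cd4 (ENSMUSG00000023274, chromosome 6, 124864692 to 124888221, minus strand) had counts of 112, 516 and 134 with the vector and of 1421, 1118 and 689 with circEZH2_005. Its level went from 3.39 ± 3.05 to 14.2 ± 4.19 CPM (SD, n = 3 each), and its log2 fold change was 2.06 (standard error 0.58, edgeR adjusted p = 0.0864). None of the coreceptor genes passed the adjusted threshold, although the groups did not overlap in any of them.

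Itgae and Cd7 are surface proteins typical of T cells held in epithelium, and Ptprc is the tyrosine phosphatase CD45 of all leukocytes. Cd7 (ENSMUSG00000025163, chromosome 11, 121036747 to 121039418, minus strand) rose with circEZH2_005. It had 724, 2435 and 1104 counts with the vector and 7142, 5206 and 4500 with circEZH2_005. From 18.9 ± 12.0 CPM with the vector it reached 74.2 ± 14.0 CPM with circEZH2_005 (SD, n = 3 each), or 1.97 on the log2 scale (standard error 0.41, edgeR adjusted p = 0.0468). Cd7 was the only member called, close to the threshold, and its adjusted p ran from 0.00254 to 0.177 over 12 alternative analyses, of which 3 called it. Exons of Cd7 overlap those of Gm11775 on the other strand. Itgae (ENSMUSG00000005947, chromosome 11, 73090583 to 73147446, plus strand) encodes the alpha E integrin chain and had counts of 1080, 4006 and 1385 with the vector and of 11647, 9549 and 6949 with circEZH2_005. The log2 fold change of Itgae was 2.11 (standard error 0.47, edgeR adjusted p = 0.0550), on levels of 28.7 ± 21.6 and 124 ± 25.0 CPM (SD, n = 3 each). Ptprc (ENSMUSG00000026395, chromosome 1, 138062861 to 138175306, minus strand) had the smallest fitted difference of the members. Its counts were 1650, 5872 and 2497 with the vector and 14672, 10443 and 7410 with circEZH2_005, a log2 fold change of 1.68 (standard error 0.45, edgeR adjusted p = 0.0756).

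The granzymes gave most of the members' reads. Gzma (ENSMUSG00000023132, chromosome 13, 113093825 to 113100981, minus strand) encodes granzyme A, a protease that cuts after basic residues, and had 4303, 17729 and 5681 counts with the vector and 53401, 37080 and 26234 with circEZH2_005. Its level was 123 ± 99.1 CPM with the vector and 512 ± 153 CPM with circEZH2_005 (SD, n = 3 each), or 2.06 on the log2 scale (standard error 0.53, edgeR adjusted p = 0.0700). Gzmb (ENSMUSG00000015437, chromosome 14, 56258838 to 56262260, minus strand) encodes granzyme B, which cuts after aspartate and activates caspases, and had the largest fitted difference of the members. Counts of Gzmb were 2642, 12734 and 3529 with the vector and 43240, 29314 and 19536 with circEZH2_005, a log2 fold change of 2.26 (standard error 0.59, edgeR adjusted p = 0.0728). Together the granzymes made up 55.4%, 60.7% and 55.1% of the members' summed CPM with the vector and 64.9%, 62.1% and 60.7% with circEZH2_005. Without them, the other 8 members summed to 77.4, 264 and 95.8 CPM with the vector and 658, 546 and 413 CPM with circEZH2_005, so the order of the samples did not rest on the granzymes.

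Because the members moved together across the samples, their promoters were searched for short motifs of transcription factor families known in T cells. RefSeq (GRCm38.p6) gave promoters for 6 of the 10, and Cd4, Cd8b1, Itgae and Cd7 were not matched. The motifs were the RUNX core TGTGGT, the ETS core GGAAGT, the GATA core AGATAA and the IRF core TTTCNNTTT, on both strands. They were searched in the 250 bases before the start that this promoter source gives. That start can differ from the gene positions given above, as it does for Gzmb. None of these letters overlap one another in the windows shown. Among 27025 promoters of that length, 14.2% held the RUNX core, 20% the ETS core, 10.3% the GATA core and 9.52% the IRF core. Of the 6 members, 2 held the RUNX core, 2 the ETS core, 1 the GATA core and 2 the IRF core, and these matches are a description of letters, not sites. The windows of both granzymes, with the highest levels, and of Cd3g, a chain of the T cell receptor complex, are shown 5′ to 3′ on the strand of the gene (all minus), with motif letters in capitals.
Gzma (chr13:113100982-113101231): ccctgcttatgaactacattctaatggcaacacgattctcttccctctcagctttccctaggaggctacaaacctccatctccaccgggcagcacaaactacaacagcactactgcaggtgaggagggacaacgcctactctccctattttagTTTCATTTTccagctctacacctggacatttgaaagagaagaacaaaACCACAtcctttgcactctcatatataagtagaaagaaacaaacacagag
Gzmb (chr14:56262335-56262584): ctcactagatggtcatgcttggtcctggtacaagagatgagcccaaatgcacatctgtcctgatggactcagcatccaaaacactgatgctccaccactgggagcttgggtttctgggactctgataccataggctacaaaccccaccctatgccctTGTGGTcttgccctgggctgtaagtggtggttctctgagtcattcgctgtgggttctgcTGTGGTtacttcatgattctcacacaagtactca
Cd3g (chr9:44980432-44980681): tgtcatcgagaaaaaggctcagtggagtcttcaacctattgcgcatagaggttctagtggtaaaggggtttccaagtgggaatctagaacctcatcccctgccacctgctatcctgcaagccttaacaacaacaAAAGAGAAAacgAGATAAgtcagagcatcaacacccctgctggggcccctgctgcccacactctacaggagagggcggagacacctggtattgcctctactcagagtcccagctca
Gzma held 1 RUNX core, read on the other strand, and 1 IRF core. Gzmb held 2 RUNX cores, and Cd3g held 1 GATA core and 1 IRF core.

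Within each group the samples kept the same order in nearly every member. In 10 of 10 members circEZH2_005 sample 1 was highest, followed by circEZH2_005 sample 2, circEZH2_005 sample 3 and vector 2. Vector 1 was lowest in 9 members and vector 3 in 1, Cd3g. Vector 2 stood at 2.70 to 4.24 times the mean of the other vector samples, the highest ratio being that of Cd4. Of all genes tested, 803 (4.38%) had a ratio of at least the lowest of these, and the median ratio over all genes was 0.996. Even so, vector 2 held only 0.422 to 0.551 times the circEZH2_005 mean, and the lowest circEZH2_005 sample was 1.31 to 1.93 times vector 2. Among the circEZH2_005 samples the highest was 1.41 to 1.99 times the lowest.

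Leaving out vector 2 changed the call in 9 of the 10 members. All 10 then passed an adjusted p under 0.05, against 5.74% of the 19145 genes tested without it. The log2 fold change ran from 2.38 for Ptprc (edgeR adjusted p = 0.00496) to 3.31 for Gzmb (edgeR adjusted p = 0.00338), with a median of 2.91, whereas the median over all genes stayed at 0.00. For Cd3e it went from 1.9 to 2.93 (edgeR adjusted p = 0.00323) and for Itgae from 2.11 to 2.93 (edgeR adjusted p = 0.00179). The level with circEZH2_005 was 5.22 to 9.89 times the mean of vector 1 and vector 3. Leaving out any other sample left 0 of 10 members past the adjusted threshold with edgeR. The share of all genes called higher was then 0.136% without vector 1, 0.162% without vector 3, 2.91% without circEZH2_005 sample 1, 0.325% without circEZH2_005 sample 2 and 0.71% without circEZH2_005 sample 3. By the criterion of fold change and unadjusted p, 10 of 10 were higher in each case. The share of all genes that met this criterion with a sample left out was not counted. No label sets vector 2 apart, so nothing in the design says which of these values to prefer. Vector 2 was singled out by its high level in these same genes. Leaving it out therefore widens the difference and narrows the vector spread for the members and for genes that follow them. The p-values without vector 2 are thus no separate support.

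**Figure D2:**
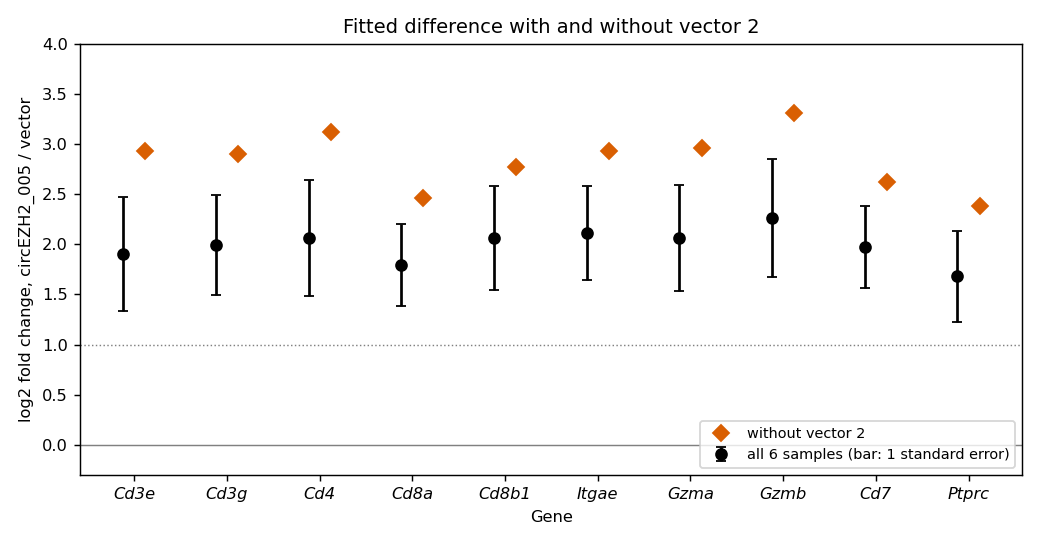
Fitted log2 fold change of circEZH2_005 over vector for each gene, with all 6 samples (black, bars of 1 standard error) and without vector 2 (orange diamonds). The dotted line marks a log2 fold change of 1, and every gene lies above it in both analyses, higher without vector 2.

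To compare levels between genes, the deposited FPKM values, which are per length, were used. Gzma was highest, at 53.8, 221 and 66.9 FPKM with the vector and 622, 413 and 309 FPKM with circEZH2_005. Gzmb followed, at 23.1, 111 and 29.1 FPKM with the vector and 353, 229 and 161 FPKM with circEZH2_005, and lay below Gzma in 6 of 6 samples. Cd7 came next, from 8.04 FPKM in vector 1 to 73.9 FPKM in circEZH2_005 sample 1. Cd8a (4.28 to 29.2 FPKM) and Itgae (2.96 to 29.8 FPKM) exchanged places, Cd8a being higher in the 3 vector samples and Itgae in the 3 circEZH2_005 samples. Cd3g ranged from 1.65 to 15.3 FPKM. Ptprc (1.13 to 9.39 FPKM), Cd8b1 (0.615 to 8.73 FPKM) and Cd3e (0.786 to 8.58 FPKM) had no constant order among themselves. Cd4 was the lowest of the members in 6 of 6 samples, from 0.347 FPKM in vector 1 to 4.13 FPKM in circEZH2_005 sample 1. The signal was thus dominated by the cytotoxic products, with Cd8a above Cd4 in each sample.

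The proportions between coreceptors overlapped between the groups. Cd8a FPKM was 12.3, 7.74 and 11.5 times that of Cd4 with the vector and 7.08, 7.47 and 8.28 times with circEZH2_005 (exact permutation p = 0.2, n = 3 each). Cd8a over Cd8b1 was 6.96, 3.83 and 2.91 with the vector and 3.35, 3.11 and 3.35 with circEZH2_005 (exact permutation p = 0.5, n = 3 each). The high vector 1 ratio goes with the 73 counts of Cd8b1 in that sample. Cd3e over Cd3g had a mean of 0.545 with the vector and 0.525 with circEZH2_005 (exact permutation p = 0.6, n = 3 each). Gzma over Gzmb was lower with circEZH2_005, at 1.76, 1.81 and 1.92 against 2.33, 1.99 and 2.30 with the vector, without overlap (exact permutation p = 0.1, the smallest possible). Gzmb over Cd3e was 29.4, 29.4 and 29.2 with the vector and 41.2, 35.0 and 35.9 with circEZH2_005, again without overlap (exact permutation p = 0.1, the smallest possible). Vector 2 had the vector proportion of Gzmb to Cd3e even though its levels of both were raised above the other vector samples. That did not hold for every ratio. For Cd8a over Cd4, vector 2 (7.74) lay within the circEZH2_005 range. For Gzma over Gzmb, vector 2 (1.99) was the vector sample nearest to the circEZH2_005 samples.

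Set against Ptprc, the gene of all leukocytes, the members varied far less than their levels did. The log2 ratio of a member's count to that of Ptprc spanned 0.44 to 1.08 over the 6 samples, whereas the log2 CPM of the same genes spanned 2.74 to 3.90. The mean log2 ratio was higher with circEZH2_005 in all 9 members compared, by 0.09 for Cd8a up to 0.72 for Gzmb. In 6 of the 9 (Cd3g, Cd4, Itgae, Gzma, Gzmb and Cd7) every circEZH2_005 ratio lay above every vector ratio, each with an exact permutation p of 0.1, the smallest possible. For Gzmb the log2 ratio was 0.68, 1.12 and 0.50 with the vector and 1.56, 1.49 and 1.40 with circEZH2_005. For Itgae it was -0.61, -0.55 and -0.85 with the vector and -0.33, -0.13 and -0.09 with circEZH2_005. Cd8a, with ratios of -0.41, -0.71 and -0.85 against -0.69, -0.47 and -0.53, overlapped between the groups (exact permutation p = 0.6). Since Ptprc is the denominator of all 9, these ratios share its error and are not independent. Ptprc also had the smallest fitted difference of the members, so higher ratios of the others follow from its choice. The share of all genes with such separate ratios was not counted.

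**Figure D3:**
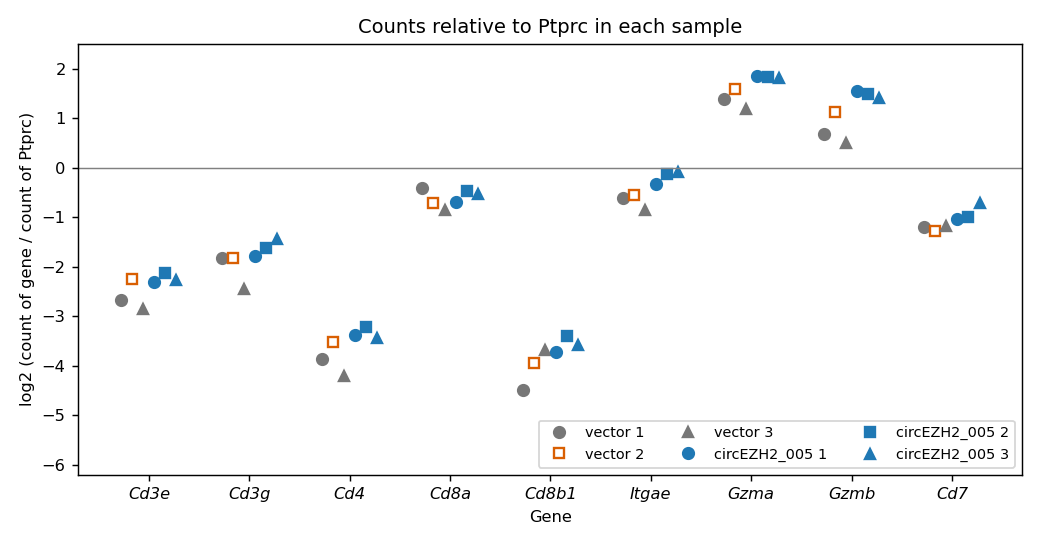
Log2 ratio of each gene's count to the count of Ptprc in each sample, with vector samples in grey (vector 2 as an open orange square) and circEZH2_005 samples in blue. The ratios of a gene lie within 0.44 to 1.08 log2 units of each other, with Gzma and Gzmb above Ptprc and Cd4 and Cd8b1 lowest.

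Each member's log2 level followed the summed level of the other members, with Pearson's r from 0.976 for Cd8b1 to 1.000 for Gzma and Gzmb over 6 samples, points that share their library and a large difference between the groups. Among 13344 other genes with a mean of at least 1 CPM, 150 had an r of at least 0.99 with the members' sum. The most similar were Spn (r = 0.9999), Vsir (0.9996), Prrt1 (0.9993), Ets1 (0.9993) and Arhgap45 (0.9992). Spn encodes the leukocyte sialoglycoprotein CD43, and Ets1 a transcription factor abundant in lymphocytes. Spn had counts of 317, 1075 and 417 with the vector and of 2739, 2069 and 1561 with circEZH2_005, and Ets1 had 661, 2233 and 882 against 6055, 4757 and 3159, in the same order of samples as the members.

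A wider programme of intraepithelial T cells was read from other genes. Of 65 further genes in 4 lists (T cell signalling, cytotoxic effectors, residency and homing, and lineage factors with cytokine receptors), 64 had a log2 fold change above 0, with a median of 1.72. With all samples 3 of 65 were called higher at an adjusted p under 0.05 and 0 lower, 52 met the criterion of fold change and unadjusted p, and in 51 the groups did not overlap. Without vector 2, 48 of 65 were called higher and 0 lower, with a median log2 fold change of 2.53. The background shares are those given above for the members. For DESeq2 and limma, used below as alternatives, the shares of all genes called were not counted.

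In T cell signalling, 2 of 16 genes rose at the adjusted threshold and 14 met the criterion of fold change and unadjusted p, with a median log2 fold change of 1.76. Those that rose were Fyb, an adaptor of the T cell receptor (1.43, standard error 0.25, edgeR adjusted p = 0.0338), and Skap1, an adaptor that couples the receptor to integrins (2.14, standard error 0.45, edgeR adjusted p = 0.0473). Lck, the kinase that starts receptor signalling, had counts of 490, 1723 and 738 with the vector and of 4354, 3605 and 2619 with circEZH2_005 (log2 fold change 1.83, edgeR adjusted p = 0.0578). Cd3d, another CD3 chain, had 115, 521 and 177 against 1443, 1124 and 774 (log2 fold change 2.02, edgeR adjusted p = 0.0724). Both showed the raised vector 2 of the members.

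Of the cytotoxic effectors 1 of 18 rose, Fasl, the ligand that triggers death through Fas, with counts of 58, 169 and 90 against 555, 514 and 385 (log2 fold change 2.19, standard error 0.38, edgeR adjusted p = 0.0313), and 17 met the criterion of fold change and unadjusted p. Ccl5, a chemokine stored by cytotoxic T cells, had the highest mean FPKM of the list over the 6 samples, although Tnfsf10 was higher in vector 1 and vector 3. Its counts were 985, 4879 and 1411 for Ccl5 with the vector against 13562, 12224 and 9045 with circEZH2_005 (log2 fold change 2.25, edgeR adjusted p = 0.0653). In residency and homing, 0 of 16 were called by edgeR (10 by DESeq2 and 0 by limma), 13 had an unadjusted edgeR p under 0.05 and 11 met the criterion of fold change and unadjusted p. There Itgb7, the partner chain of the Itgae product, had counts of 448, 1605 and 572 against 4229, 3483 and 2558 (log2 fold change 1.96, edgeR adjusted p = 0.0582). Of the lineage factors and cytokine receptors 0 of 15 were called by edgeR (8 by DESeq2 and 0 by limma), and 10 met the criterion of fold change and unadjusted p. Il2rg, the common receptor chain for IL-2 and IL-15, had counts of 234, 733 and 317 against 1955, 1676 and 868 (log2 fold change 1.79, edgeR adjusted p = 0.0674).

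Programme genes with a log2 fold change under 1, named after their values were seen, included Tnfsf10 (0.36), S1pr1 (0.99), Jaml (0.30), Gpr55 (0.78), Bcl11b (0.13) and Tcf7 (0.44). Tnfsf10 (9994, 15436 and 9869 counts with the vector) and Jaml (2738, 2931 and 3191) were already abundant in the vector samples, and Jaml did not show the raised vector 2 of the members.

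**Figure D4:**
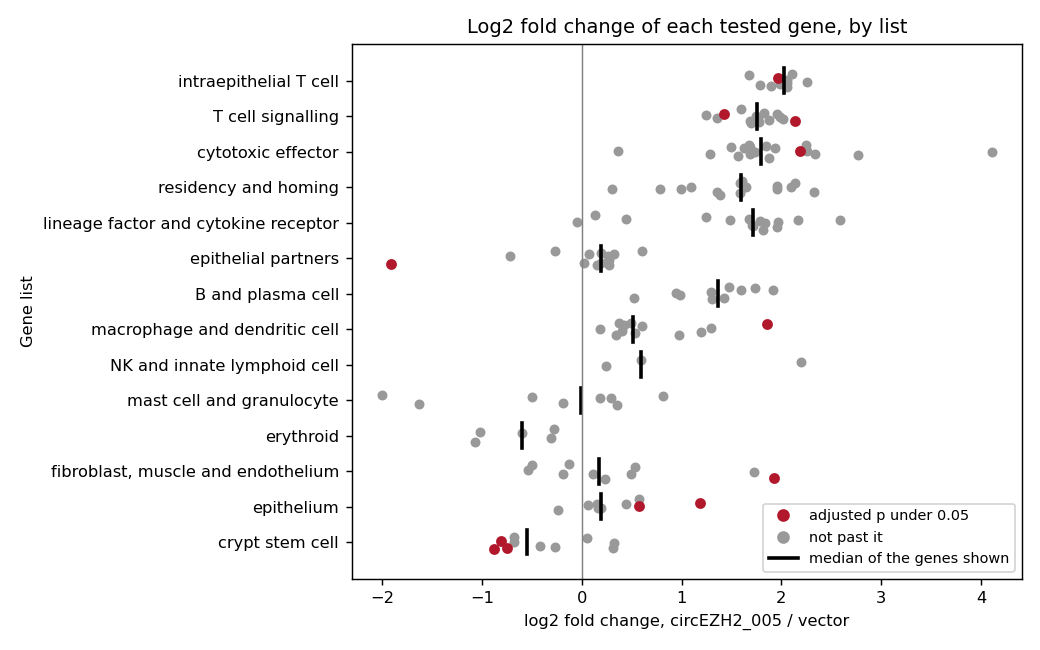
Log2 fold change of circEZH2_005 over vector for each tested gene, by list, with genes past an adjusted p under 0.05 in red. A black bar marks the median of the genes drawn in each list. The medians of the T cell lists lie between 1.60 and 2.02 and that of the epithelial partners at 0.19, and a gene with 0 counts in every vector sample (Ncr1) is not drawn.

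Epithelial cells keep these lymphocytes in place through cytokines, chemokines, butyrophilin-like proteins and adhesion, and 14 genes of these partners were read beside the members. At an adjusted p under 0.05 edgeR called 0 of 14 higher, DESeq2 1 and limma 0, and 2 had an unadjusted edgeR p under 0.05 with higher values. The list had a median log2 fold change of 0.19. It summed to 2545, 2254 and 2417 CPM with the vector and 2155, 2909 and 2592 CPM with circEZH2_005, which overlap. Cdh1, the E-cadherin bound by the Itgae product, had counts of 64872, 60324 and 76451 against 77902, 80767 and 70858 (log2 fold change 0.19, standard error 0.10, edgeR adjusted p = 0.314). Btnl6, of the butyrophilin-like family, had a log2 fold change of 0.27 (standard error 0.15, edgeR adjusted p = 0.335). Il18, a cytokine of epithelial cells that acts on T cells, fell, with counts of 7002, 4001 and 6335 with the vector and of 1299, 2041 and 1258 with circEZH2_005 (log2 fold change -1.91, standard error 0.27, edgeR adjusted p = 0.0204). Without vector 1, vector 3 or circEZH2_005 sample 3, Il18 did not pass the adjusted threshold. With all samples, that is 1 of 14 called lower, against 0.986% of all genes, and without vector 2 it was also 1 of 14, against 1.74%.

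Markers of other cell types were read in the same samples. B and plasma cell markers showed a like difference in part: 0 of 10 tested were called by edgeR (2 by DESeq2 and 0 by limma). The criterion of fold change and unadjusted p was met by 4 of 10, against 6.22% of all genes. The median log2 fold change was 1.37, and the list summed to 58.9 to 111 CPM with the vector and 90.5 to 418 CPM with circEZH2_005. Igha, the heavy chain of IgA, had counts of 2016, 4135 and 2064 against 17392, 7382 and 3385, so circEZH2_005 sample 3 lay below vector 2. Igkc, the kappa light chain, had 1258, 2296 and 1395 against 9075, 3597 and 1562, with the same overlap. Unlike the members, the B cell list did not separate the groups in its sum with all samples. Vector 2 (111 CPM) lay above circEZH2_005 sample 3 (90.5 CPM). Vector 1 and vector 3, at 58.9 and 60.5 CPM, lay below every circEZH2_005 sample. In 3 of the 10 genes every circEZH2_005 sample did lie above every vector sample, against 16.4% of all genes.

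Of 12 macrophage and dendritic cell markers tested, 1 rose, Itgax (log2 fold change 1.86, standard error 0.34, edgeR adjusted p = 0.0362), an integrin chain of dendritic cells that activated intraepithelial T cells can also carry. Its level was 2.83, 5.96 and 4.41 CPM with the vector and 21.7, 15.7 and 10.5 CPM with circEZH2_005. The list, Itgax included, summed to 35.3 to 47.4 CPM with the vector and 55.1 to 87.2 CPM with circEZH2_005. In 3 of the 12 genes every circEZH2_005 sample lay above every vector sample, against 16.4% of all genes. Of 4 natural killer and innate lymphoid markers tested, 1 was called, Ncr1, the receptor NKp46, with 0, 0 and 0 counts with the vector and 21, 26 and 11 with circEZH2_005 (edgeR adjusted p = 0.0463). Klrb1c, also low, had 23, 14 and 0 counts against 89, 60 and 28 (edgeR adjusted p = 0.239). The list summed to 12.9 to 18.1 CPM against 17.7 to 20.9 CPM. Most of that sum was Kit, at 12.3, 13.4 and 17.7 CPM with the vector and 18.1, 16.3 and 16.6 CPM with circEZH2_005. The mast cell and granulocyte list (0 of 8 called by edgeR, 2 with lower values at an unadjusted p under 0.05, 1 by DESeq2 and 0 by limma) summed to 16.7 to 29.8 CPM against 16.9 to 24.2 CPM, and the erythroid list (0 of 5 called by edgeR, 2 with lower values at an unadjusted p under 0.05, 2 by DESeq2 and 0 by limma) to 18.4 to 32.2 CPM against 8.96 to 20.8 CPM. The list of fibroblasts, muscle and endothelium summed to 6.02 to 9.69 CPM against 5.60 to 17.2 CPM, with 1 of 10 called, the endothelial and leukocyte adhesion molecule Pecam1 (log2 fold change 1.93, edgeR adjusted p = 0.0377). Of all genes tested, edgeR called 2.69% higher and 0.986% lower at the adjusted threshold. No listed marker in the table had a count of 0 in all 6 samples.

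Markers of the cells named by the labels differed in part. Of 9 epithelial markers 2 rose, Krt8 (log2 fold change 0.57, edgeR adjusted p = 0.0301) and Krt20 (1.18, edgeR adjusted p = 0.0207), the latter a keratin of mature enterocytes. Of all genes tested, 2.69% were called higher. The epithelial list summed to 7871 to 8183 CPM with the vector and 9935 to 12951 CPM with circEZH2_005. Of 10 crypt stem cell markers 3 fell, Lgr5, Smoc2 (log2 fold change -0.81, edgeR adjusted p = 0.0203) and Prom1 (-0.75, edgeR adjusted p = 0.0331), against 0.986% of all genes called lower. The stem cell list summed to 1871, 2737 and 1986 CPM with the vector and 1746, 1308 and 1912 CPM with circEZH2_005, highest in vector 2. Most of that sum was Olfm4, at 1447, 2314 and 1511 CPM with the vector. Lgr5, Smoc2 and Prom1 were each lowest in vector 2 among the vector samples. Olfm4, Ascl2, Axin2, Rnf43, Tnfrsf19 and Cd44, named after their values were seen, were each highest in it, and Sox9 lay between. The part of any of these markers in the level of the T cell genes was not tested, and neither was the presence of lymphocytes in the samples.

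**Figure D5:**
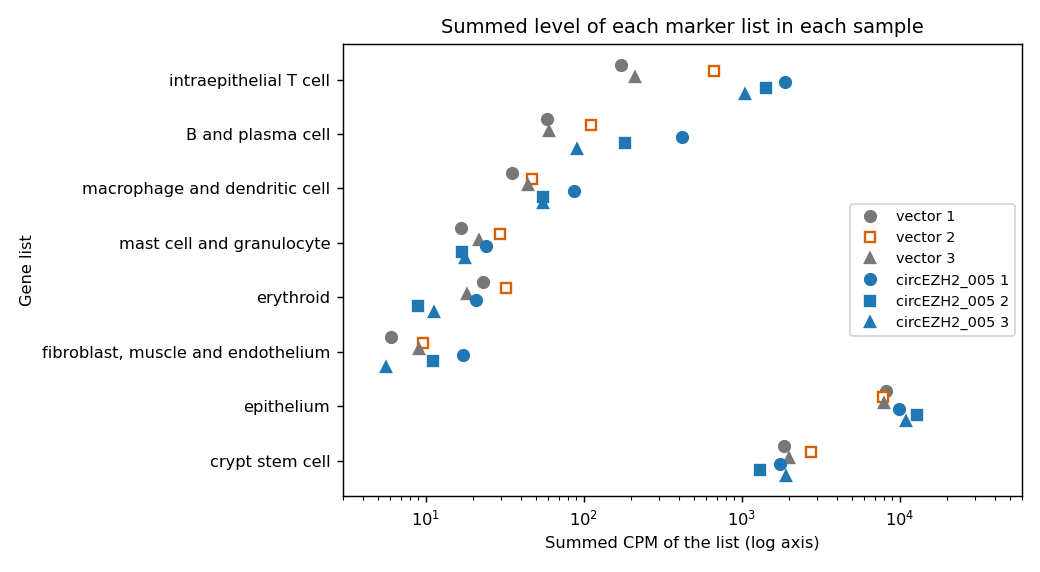
Summed level of each marker list in each sample, in CPM on a log axis, with vector samples in grey (vector 2 as an open orange square) and circEZH2_005 samples in blue. The intraepithelial T cell genes span 173 to 1874 CPM with the groups apart. The groups are also apart in the epithelial list (7871 to 8183 against 9935 to 12951 CPM). The same holds for the sum of the macrophage and dendritic cell list (35.3 to 47.4 against 55.1 to 87.2 CPM). That sum includes Itgax, and the groups were apart in 3 of its 12 tested genes, against 16.4% of all genes.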

How the data were processed

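RNA sequencing of polyadenylated RNA was used from 6 samples, 3 with the vector and 3 overexpressing circEZH2_005, grouped by the sample labels. The control columns, named as a negative control, were taken as the vector samples, there being no other control. The authors deposited a read count for every gene and sample, without normalization, with FPKM, fragments corrected for transcript length and depth. The submitters' processing notes name cutadapt 1.9, HISAT2 2.0.4, StringTie 1.3.4d, DESeq2 and mm10, without roles; the annotation and the use of strand are not given in the sources used here. Every gene ID was compared with GENCODE M21, where 28678 of 28752 were found, 28527 with the same start. 0 columns of sample values were left unused.

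Counts were filtered with filterByExpr, scaled with TMM and compared by quasi-likelihood in edgeR 4.0.16 (R 4.3.3), with no covariate and with Benjamini-Hochberg adjustment over all 18348 genes tested. Standard errors were obtained from the log2 fold change and its F statistic. Thresholds were an adjusted p under 0.05, and, after the criteria the study states, a fold change over 2 or under 0.5 with p under 0.05. For single values, exact permutation tests (two-sided) were run on log2(CPM + 0.1), or on log2 ratios of counts with 0.5 added, or on log2 ratios of FPKM. On simulated data for this comparison, with 17712 genes tested, edgeR recovered 160 of 200 genes changed by 1.5 on the log2 scale (80%), and 9.6% of its calls were unchanged genes. Alternatives were median-of-ratios scaling, no filter on low counts, DESeq2 1.42.0, a replicate block, limma 3.58.1 on log2(FPKM + 1) and log2(FPKM + 0.1), and each sample left out in turn.

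The members and the gene lists were chosen with earlier results of these data known. Of 167 listed genes, 163 were in the table. The value of 1 listed gene is not reported here. Genes named were all 10 members, of each other list up to 4 called in each direction and at most 2 with the highest mean FPKM, the 5 genes most like the members, and those said to be named after their values were seen. The samples held between 71506487 and 79919893 counts, each group had 3 samples, and the limit for a count of 0 covers counting error only.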

Additional observations from a re-analysis of the deposited data

How the results depend on the processing

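The direction of all 10 members was the same in the 12 alternatives, and 10 of 10 met the criterion of fold change and unadjusted p in each. For the alternatives, the share of all genes that met this criterion was not counted. The number past an adjusted p under 0.05 was not stable. Against 1 member as reported, it was 0 without the filter on low counts, 9 with DESeq2, 0 with limma on log2(FPKM + 1), 0 with limma on log2(FPKM + 0.1) and 0 to 10 with 1 sample left out, 10 only without vector 2. The adjusted p of single members ran from 0.00176 to 0.263 over these alternatives. For the 65 programme genes, 3 as reported, it was 0 without the filter, 32 with DESeq2, and 0 to 48 with 1 sample left out, 48 without vector 2. For the epithelial partners the count higher was 0 as reported, 1 with DESeq2 and 0 to 1 with 1 sample left out (1 without circEZH2_005 sample 1), and the count lower was 1 as reported and 0 to 1 with 1 sample left out (0 without vector 1, vector 3 or circEZH2_005 sample 3). Leaving out a sample also leaves fewer samples to fit. Other than that, the cause was not tested.

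Samples of the 2 groups share replicate numbers, and the deviations of same-numbered samples correlated at -0.136, -0.023 and 0.036, so that the numbers were not taken to pair the samples. With the replicate block 0 members, 1 programme gene and 0 epithelial partners (higher or lower) passed an adjusted p under 0.05. The lowest count of a member in any sample was 73, above the 3 counts taken as the limit for a count of 0.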
